A study of Caenorhabditis elegans with 8 samples.

Results

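The 7 genes described here encode the p38 mitogen-activated protein kinase (MAPK) cascade of Caenorhabditis elegans immunity: tir-1, nsy-1, sek-1, pmk-1, vhp-1, atf-7 and skn-1. They were taken by gene name, with earlier results of these data known, and all 7 were found among the 14541 genes of the normalized expression table. The table comes from a study of pals genes, which control the balance between immunity and development, and holds 4 RNA-seq libraries of pals-17(*) mutants and 4 of wild-type N2 animals. The mutants carry the allele pals-17(syb3980), a premature stop codon, in strain ERT994. Both strains were whole animals grown at 20 °C on OP50 bacteria from the L1 larval stage, the mutants for 72 h and the wild type for 48 h, because the mutants grow more slowly. Genotype, growth time and developmental stage therefore cannot be told apart, and mutant populations are of less even age.

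In this pathway the adaptor TIR-1 activates the kinase NSY-1, which phosphorylates the kinase SEK-1, which in turn phosphorylates the p38 kinase PMK-1. The phosphatase VHP-1 removes the activating phosphates from PMK-1. Active PMK-1 phosphorylates the transcription factors ATF-7 and SKN-1, which drive genes for defence against intestinal pathogens and for detoxification. Signalling through the cascade is set by phosphorylation, which RNA-seq does not measure, so the values below concern transcript levels alone.

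All values are in CPM, the reads of a gene scaled by the authors to a common library size. The libraries held 18629170 to 21891721 reads in pals-17(*) mutants and 17871320 to 23378799 reads in wild-type animals. The scaled sizes were 1.203 to 1.26 times these totals in pals-17(*) mutants and 0.793 to 0.822 times in wild-type animals, so a change to library totals shifts every gene by about the same amount. Each cascade gene had between 572 and 4814 reads in every library. The targeted gene pals-17 had 4.595, 4.45, 4.07 and 4.36 CPM in pals-17(*) libraries and 15.04, 14.3, 15.5 and 19.3 CPM in wild-type libraries (log2 difference -1.86, limma adjusted p = 1.72e-07). The 4 libraries of a strain are labelled only as experimental replicates, and the p-values measure the spread between them.

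All 7 cascade genes had lower CPM in pals-17(*) mutants at an adjusted p under 0.05 (limma, adjusted over all genes), 0 were higher, and only pmk-1 passed a 2-fold difference. Without the intensity trend in limma the count was 6, since skn-1 then had an adjusted p of 0.0753. That direction is not stable for every member, since tir-1, vhp-1, atf-7 and skn-1 had a positive difference under at least 1 other scaling described below. Most of the transcriptome differed between the strains: 83.7% of all genes passed the same test, 41.2% lower and 42.5% higher in the mutants, and 20% were lower by more than 2-fold, against 29.3% higher. The median log2 difference of the 7 genes was -0.58, against 0.00406 over all genes tested. In 6 of the 7 genes every pals-17(*) library lay below every wild-type library, which held for 39% of all genes, while 41.2% lay apart in the higher direction and 80.2% in either. In whole animals, fewer cells of a tissue and less RNA per cell cannot be told apart.

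**Figure D1:**
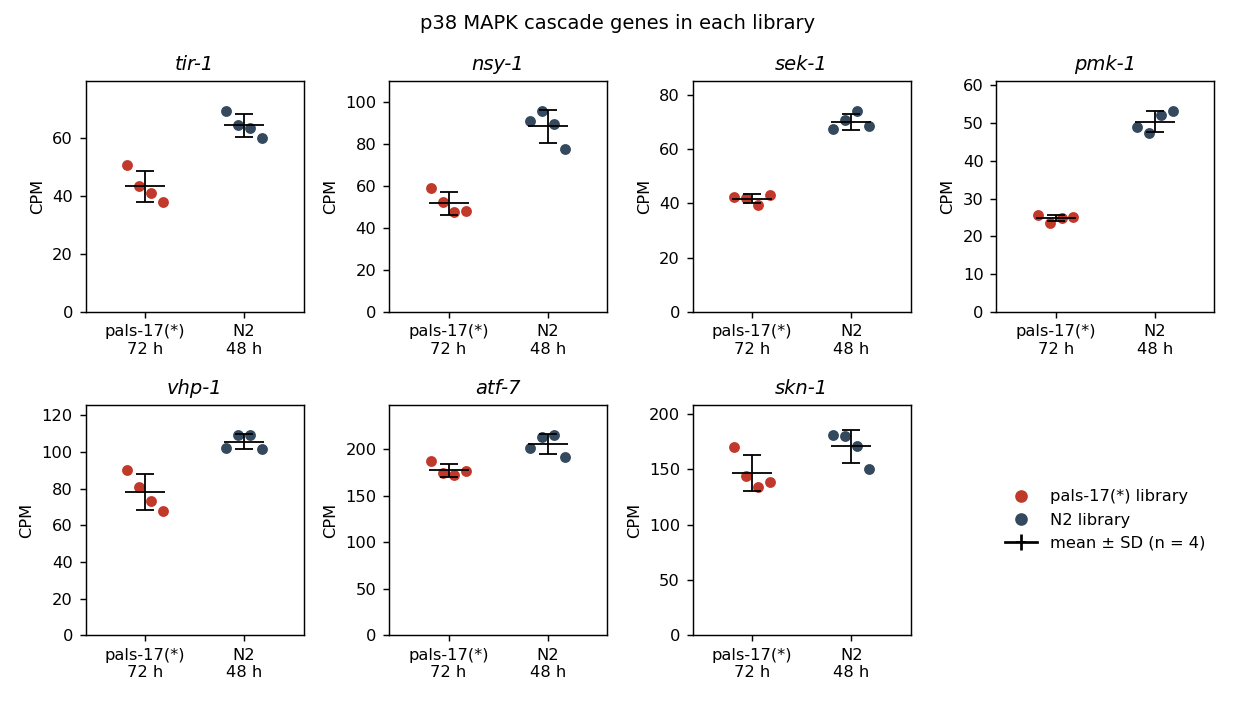
CPM of the 7 cascade genes (vertical axes from 0) in 4 pals-17(*) libraries grown for 72 h (left) and 4 wild-type N2 libraries grown for 48 h (right). Points are libraries, and horizontal bars with whiskers give the mean ± SD. The strains are apart for every gene but skn-1, with the largest proportional gap for pmk-1, at 24.8 CPM in mutants and 50.4 CPM in wild-type animals.

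The most upstream gene is tir-1, which encodes the Toll/interleukin-1 receptor domain adaptor orthologous to human SARM1 (chromosome III, 3869590 to 3901642, reverse strand). It had 50.5, 43.5, 40.9 and 37.9 CPM in pals-17(*) libraries and 69.2, 64.5, 63.4 and 59.8 CPM in wild-type libraries. The strains did not overlap, and the mutant mean was 32.8% lower (log2 difference -0.58 ± 0.092 SE, limma adjusted p = 0.000186). When the libraries were scaled by their totals the difference was 0.017 (adjusted p = 0.864), and when they were scaled by neuron and muscle markers it was -0.051 (adjusted p = 0.638), while the call held under the other 3 scalings tried.

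The MAP kinase kinase kinase gene nsy-1, an ASK1 orthologue, lies on chromosome II (5022757 to 5029999, forward strand). Its levels were 59.1, 52.2, 47.3 and 47.8 CPM in pals-17(*) libraries, against 91.0, 95.5, 89.4 and 77.2 CPM in wild-type libraries. Every mutant library was below every wild-type library, by 41.6% on average (log2 difference -0.78 ± 0.0919 SE, limma adjusted p = 2.1e-05). Under library totals the difference of nsy-1 kept its sign at -0.18 but did not pass the threshold (adjusted p = 0.0858).

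Downstream of it, the MAP kinase kinase gene sek-1 (chromosome X, 7816734 to 7821036, forward strand) had close replicates. Mutant libraries had 42.3, 42.1, 39.3 and 43.2 CPM, whereas wild-type libraries had 67.4, 70.7, 74.1 and 68.7 CPM. The gap between the strains was far wider than the spread within either, with a mean 40.5% lower in pals-17(*) mutants (log2 difference -0.75 ± 0.0594 SE, limma adjusted p = 1.06e-06). It was also lower under library totals, by a log2 difference of -0.15 (adjusted p = 0.0315). Under neuron and muscle markers the difference of sek-1 was -0.22 and did not pass the threshold (limma adjusted p = 0.125).

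The p38 kinase gene pmk-1 (chromosome IV, 8148794 to 8151266, forward strand) had the largest difference of the 7. It measured 25.5, 23.6, 25.0 and 25.1 CPM in pals-17(*) libraries and 48.9, 47.3, 52.1 and 53.2 CPM in wild-type libraries. The highest mutant library was thus far below the lowest wild-type library, and the mutant mean was 50.8% lower (log2 difference -1.02, 95% confidence interval -1.17 to -0.88, limma adjusted p = 2.11e-07). Of all genes in the table, 19.5% had a more negative difference than pmk-1. Among the 7 genes, only pmk-1 was lower with an adjusted p under 0.05 in every scaling tried, at its weakest by -0.43 under library totals (adjusted p = 9.04e-05). Its place past 2-fold was marginal, since log2 differences ran from -1.05 to -0.99 when 1 library was left out, and fell short of 2-fold without pals-17(*) replicate 2 or without wild-type replicate 4.

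The gene for the opposing phosphatase, vhp-1 (chromosome II, 5323276 to 5340829, forward strand), had 90.3, 80.7, 73.4 and 67.8 CPM in pals-17(*) libraries, against 102, 109, 109 and 102 CPM in wild-type libraries. The strains were apart, with the mutants spread more widely than the wild type. The mutant mean was 26.1% lower (log2 difference -0.44 ± 0.0875 SE, limma adjusted p = 0.000835), but the difference of vhp-1 was 0.15 under library totals (adjusted p = 0.119) and -0.12 after quantile normalization (adjusted p = 0.213).

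Under the deposited scaling, both transcription factor genes at the end of the cascade differed least. The gene atf-7, for the basic leucine zipper protein that controls many PMK-1-dependent defence genes, lies on chromosome III (4491627 to 4499045, reverse strand). It had 187, 174, 172 and 176 CPM in pals-17(*) libraries and 201, 213, 215 and 192 CPM in wild-type libraries. Every pals-17(*) library was narrowly below every wild-type library, by 13.6% on average (log2 difference -0.21, limma adjusted p = 0.00678), whereas under library totals atf-7 was higher in the mutants (0.39, adjusted p = 6.24e-05).

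For skn-1, the Nrf orthologue that controls oxidative stress and detoxification genes (chromosome IV, 5651039 to 5660384, reverse strand), levels were 170, 144, 134 and 138 CPM in pals-17(*) libraries and 181, 180, 171 and 150 CPM in wild-type libraries. The ranges overlapped, because mutant replicate 1 lay above wild-type replicate 4. The mean was 14% lower in pals-17(*) mutants (log2 difference -0.22, limma adjusted p = 0.0441), and the exact permutation test over 70 relabellings gave p = 0.0571, against 0.0286 for each of the other 6 genes, the smallest p this design allows. The log2 difference of skn-1 ran from -0.29 to -0.18 as single libraries were left out. Its adjusted p rose above 0.05, so that the call was lost, without pals-17(*) replicate 2, 3 or 4 and without wild-type replicate 1, 2 or 3. Under library totals skn-1 was higher in the mutants (0.38, adjusted p = 0.00226).

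The dependence on scaling was therefore examined for all 7 genes. With the library totals as the scale, the median of all genes shifted by 0.60 on the log2 scale, and 2 cascade genes were lower (sek-1 and pmk-1) and 2 higher (atf-7 and skn-1) in pals-17(*) mutants, among 23.3% lower and 60.1% higher genes overall. Centring on the median changed little, with 7 lower and 0 higher among 41.9% lower and 42% higher genes. Scaling by snb-1, the synaptobrevin gene that the study used as its qRT-PCR reference, left 5 lower and 0 higher among 39% lower and 43.8% higher genes, and atf-7 (-0.15) and skn-1 (-0.16) no longer passed the threshold. Quantile normalization, which moved the overall median by -0.12, gave 4 lower and 2 higher among 45.5% lower and 39.1% higher genes, the 2 higher ones being atf-7 (0.48) and skn-1 (0.37). A scale set by neuron and body wall muscle markers, chosen after seeing the data, gave 2 lower (nsy-1 and pmk-1) and 2 higher (atf-7 and skn-1) among 22.1% lower and 54.7% higher genes. Which library scale reflects RNA per animal was not measured.

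**Figure D2:**
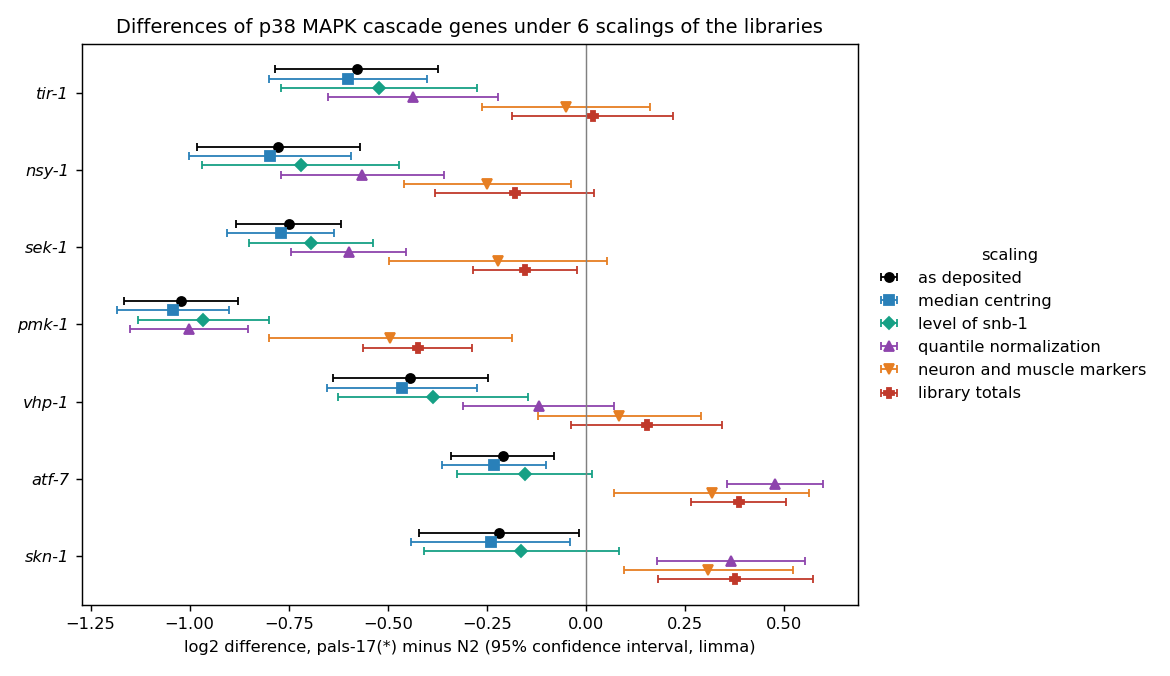
Log2 difference of each cascade gene, pals-17(*) minus N2 (horizontal axis), under 6 scalings of the libraries. Symbols are estimates and whiskers their 95% confidence intervals from limma over 4 libraries per strain. Only pmk-1 lies wholly left of 0 under all 6, between -1.04 and -0.43, whereas atf-7 and skn-1 lie right of 0 under 3 of them.

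Differences between 2 cascade genes within a library do not depend on its total, and 3 such pairs were compared by role with an exact 2-sided permutation test, adjusted over the 3. The pmk-1 level minus that of its activating kinase gene sek-1, in log2 CPM, was -0.73, -0.83, -0.66 and -0.79 in pals-17(*) libraries and -0.46, -0.58, -0.51 and -0.37 in wild-type libraries. The strains did not overlap, and the difference between them was -0.27 (exact permutation p = 0.0286, adjusted p = 0.0429). Hence pmk-1 was lower relative to sek-1 in the mutants.

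Set against its phosphatase gene vhp-1, pmk-1 was at -1.82, -1.77, -1.56 and -1.44 in pals-17(*) libraries and at -1.06, -1.21, -1.07 and -0.94 in wild-type libraries. Again the strains were apart, and pmk-1 was lower relative to vhp-1 in the mutants, by -0.58 (exact permutation p = 0.0286, adjusted p = 0.0429). The level of atf-7 minus that of skn-1 averaged 0.28 ± 0.10 in pals-17(*) libraries and 0.27 ± 0.0935 in wild-type libraries (SD, n = 4 each), a difference of 0.0088 (exact permutation p = 0.8286) with overlapping ranges.

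**Figure D3:**
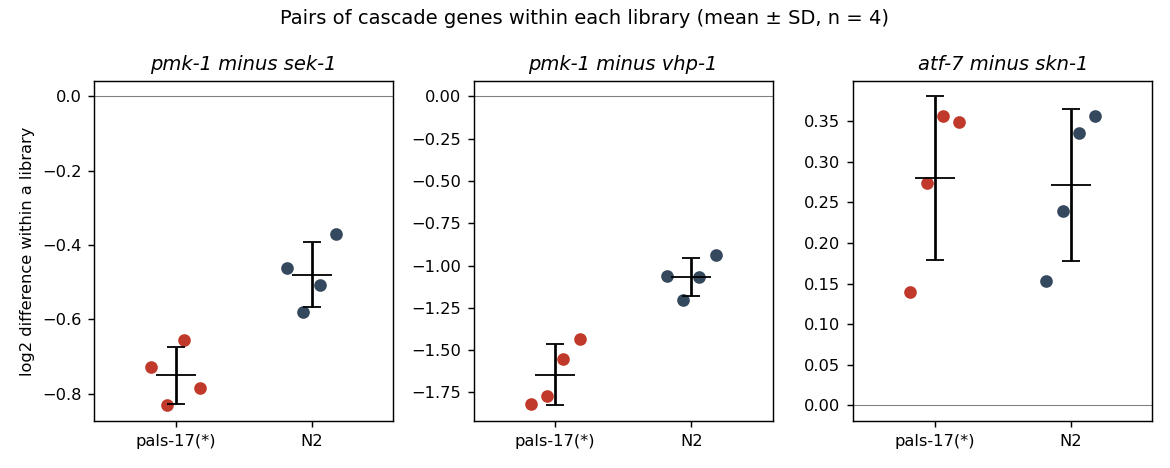
Log2 CPM of 1 cascade gene minus that of another within the same library (vertical axes, which differ in range), in 4 pals-17(*) libraries (left) and 4 wild-type N2 libraries (right) of each panel. Points are libraries, bars and whiskers the mean ± SD. The first and second pairs are apart between the strains by -0.27 and -0.58, and the third overlaps.

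Per kilobase of exon, the order of levels in pals-17(*) mutants was atf-7 (65.3 CPM per kb), skn-1 (49.5), vhp-1 (25.2), sek-1 (20.3), pmk-1 (14.8), nsy-1 (10.2) and tir-1 (7.13). No neighbours in that order overlapped across the 4 libraries. In wild-type animals the order was atf-7 (75.6 CPM per kb), skn-1 (57.6), sek-1 (34.2), vhp-1 (34.0), pmk-1 (30.1), nsy-1 (17.4) and tir-1 (10.6). There, sek-1 and vhp-1 overlapped and other neighbours did not. By this measure the transcription factor genes had the highest levels per length and the adaptor gene the lowest in both strains. The lengths merge all annotated exons of a gene. Which of its transcripts were present was not measured, and the order could differ with their lengths.

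Replicates were close for every member, with a coefficient of variation of 3.26% to 12.5% in pals-17(*) mutants and 3.95% to 8.83% in wild-type animals. What spread there was ran through several genes at once. Mutant replicate 1 was the highest pals-17(*) library for 6 of the 7 genes, on average by 0.15 on the log2 scale above the strain mean, and wild-type replicate 4 was the lowest N2 library for 5 of the 7. Mutant replicate 1 also had the highest summed intestine, epidermis, neuron, muscle and germline markers of its strain, and wild-type replicate 4 the lowest oocyte, germline, sperm, intestine, epidermis and muscle markers of its own. The part of tissue makeup in this spread was not tested.

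Marker lists of the tissues differed strongly between the strains. All 14 oocyte and early embryo markers, a list that includes the germline genes gld-1 and glp-1, were higher in pals-17(*) mutants. Summed levels of this list were 3896 to 5135 CPM in mutants, against 50.1 to 242 CPM in wild-type animals. The 10 germline markers summed to 1210 to 1453 CPM in mutants, against 116 to 356 CPM in wild-type animals, and the 8 sperm markers to 343 to 398 CPM in mutants, against 13.2 to 45.6 CPM in wild-type animals, with every one of them higher in the mutants. All 9 intestine markers matched to the table were lower, with sums of 5518 to 6715 CPM in mutants, against 19232 to 22054 CPM in the wild type, and a median log2 difference of -1.93. Of 8 epidermis markers 7 were lower and 1 higher, summing to 867 to 1066 CPM in mutants, against 5256 to 6018 CPM in wild-type animals. Neuron markers were lower in 7 of 10 (576 to 649 CPM in mutants, against 846 to 861 CPM in wild-type animals) and body wall muscle markers in 6 of 8 (4061 to 6658 CPM in mutants, against 6805 to 9788 CPM in wild-type animals). Over all genes 41.2% were lower and 42.5% higher. The median log2 difference was -0.36 for neuron markers and -0.63 for muscle markers. Library totals shift the median of all genes by 0.60, so the lower level of these markers depends on the scaling. The neuron marker snb-1 was at 0.54 under library totals. No marker was at 0 reads in any library. The part of tissue makeup or stage in the differences of the 7 cascade genes was not tested.

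The pmk-1 gene is the last of 3 p38 genes that are transcribed from 1 operon, in the order pmk-3, pmk-2 and pmk-1, with annotated gaps of 345 and 145 bp. The upstream gene pmk-3, a p38 kinase of the axon regeneration and synapse pathway, had 26.6, 23.96, 23.94 and 22.5 CPM in pals-17(*) libraries and 48.8, 48.99, 48.7 and 49.7 CPM in wild-type libraries. It was lower in the mutants by nearly the same amount as pmk-1 (log2 difference -1.02, limma adjusted p = 2.76e-07), and remained lower under library totals (-0.42). The middle gene, pmk-2, a p38 kinase that acts with pmk-1 in immunity, had 7.09, 7.38, 7.61 and 7.84 CPM in mutants and 13.7, 12.2, 11.05 and 12.9 CPM in wild-type animals. Its strains were also apart (log2 difference -0.73, adjusted p = 4.47e-05), although under library totals the difference was -0.13 and did not pass the threshold. Per kilobase, pmk-2 was the lowest of the 3 in both strains, at 4.87 CPM per kb in mutants and 8.09 CPM per kb in wild-type animals, while pmk-3 was at 12.99 CPM per kb in mutants and 26.3 CPM per kb in wild-type animals.

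Of 18 genes of the p38 paralogs and the parallel JNK, ERK and Nemo-like kinase cascades, 10 were lower and 3 higher in pals-17(*) mutants, with a median log2 difference of -0.38. Over all genes 41.2% were lower and 42.5% higher. Under library totals the counts were 4 lower and 9 higher, when 23.3% of all genes were lower and 60.1% higher, so the balance of this list depends on the scaling. The largest fall was in mak-2, a MAPK-activated protein kinase (27.8 ± 1.34 CPM in mutants and 80.6 ± 3.96 CPM in wild-type animals, log2 difference -1.53). The Nemo-like kinase gene lit-1 was also lower (-0.91), whereas its activating kinase gene mom-4, the TAK1 orthologue, was higher (0.36). The JNK-family gene kgb-2 rose most, to 7.98 ± 0.631 CPM in mutants, against 2.06 ± 0.326 CPM in wild-type animals (SD, n = 4 each, log2 difference 1.94, limma adjusted p = 6.78e-07). The gene for the germline ERK phosphatase, lip-1, rose by 0.49.

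Among 16 genes that regulate the cascade or act beside it, 7 fell and 4 rose (median log2 difference -0.12). With 41.2% of all genes lower and 42.5% higher, the falls were near the share of all genes and the rises below it. Under library totals 5 were lower and 9 higher, among 23.3% lower and 60.1% higher genes overall. The receptor gene fshr-1, which is needed for intestinal defence, fell most, to 24.6 ± 4.43 CPM in pals-17(*) mutants (between 21.1 and 31.0 CPM), against 167.6 ± 4.13 CPM in wild-type animals (SD, n = 4 each). This was a log2 difference of -2.79 (limma adjusted p = 1.01e-08), larger than that of any cascade gene. The phospholipase C-beta gene egl-8 fell by 1.12 on the log2 scale. The largest fitted rise was that of octr-1, a neuronal G protein-coupled receptor that restrains immunity, at 5.02 ± 0.638 CPM in mutants and 0.911 ± 0.297 CPM in wild-type animals (SD, n = 4 each, log2 difference 2.48). With its wild-type mean under 1 CPM, octr-1 was kept by a filter on low values mainly through the mutants, and its difference was 1.66 with 1 CPM added. The STAT-like gene sta-2, which drives epidermal antimicrobial peptides, rose by 0.55.

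The pair nipi-3 and cebp-1 moved in opposite directions, under the deposited scaling and under library totals. The pseudokinase gene nipi-3, a Tribbles homologue known to restrain cebp-1, had 87.0, 71.7, 69.0 and 68.2 CPM in pals-17(*) libraries and 152.7, 151.8, 149.6 and 142.5 CPM in wild-type libraries (log2 difference -1.02, limma adjusted p = 1.16e-06). The gene cebp-1, a C/EBP transcription factor acting with the p38 pathways, had 79.7, 69.6, 68.9 and 70.8 CPM in mutants and 31.2, 32.2, 33.9 and 33.4 CPM in wild-type animals (log2 difference 1.14, adjusted p = 1.28e-07). Neither gene overlapped between the strains.

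Of 8 regulators of SKN-1, 5 were lower and 2 higher in the mutants (median -0.42), next to 41.2% lower and 42.5% higher over all genes. Under library totals 2 were lower and 4 higher, next to 23.3% and 60.1%. Largest falls were those of the kinase genes sgk-1 (-1.49) and akt-2 (-1.18), whose products restrain SKN-1, and of mdt-15 (-0.79). The product of mdt-15, a Mediator subunit, acts with SKN-1. However, mdt-15 no longer passed the threshold under library totals (-0.20) or after quantile normalization (-0.018). The genes xrep-4 (0.70), for an F-box protein that promotes SKN-1 activity, and brap-2 (0.55), whose loss activates SKN-1, were higher. The gene for WDR-23, which targets SKN-1 for degradation, had 68.5, 61.2, 58.7 and 56.3 CPM in pals-17(*) libraries and 72.4, 72.2, 81.5 and 77.5 CPM in wild-type libraries, a fall of 0.31 (limma adjusted p = 0.00301) that turned to a difference of 0.28 under library totals.

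**Figure D4:**
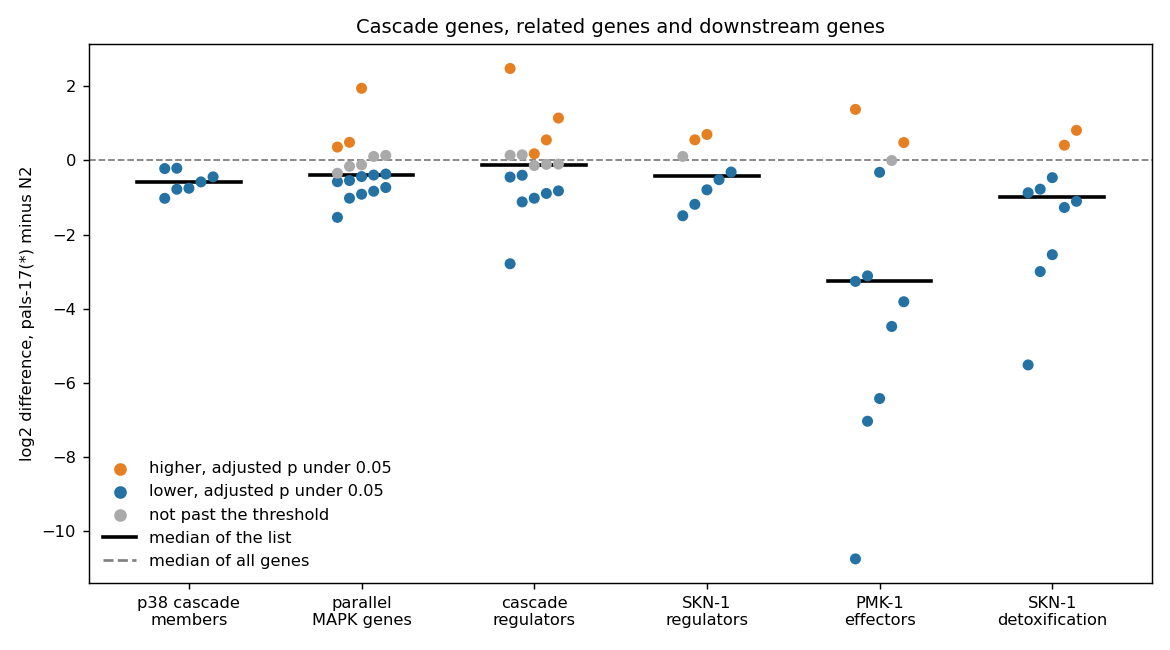
Log2 difference, pals-17(*) minus N2, of each gene (vertical axis) in the 7 cascade genes and in 5 lists of related genes. Points are genes, orange and blue for an adjusted p under 0.05 and grey otherwise, solid bars are list medians and the dashed line is the median of all genes (0.00406). The cascade genes lie between -1.02 and -0.21, while PMK-1 effectors reach -10.74 around a median of -3.26.

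Immune effector genes that need PMK-1 for their expression were considered next. Of 13 effector genes listed, 11 were matched to the table, and 8 of these were lower and 2 higher in pals-17(*) mutants (median log2 difference -3.26), while 41.2% of all genes were lower and 42.5% higher. Under library totals 7 were lower and 4 higher, with 23.3% and 60.1% of all genes. The effector genes dod-24, dod-22 and mul-1 averaged under 1 CPM in the strain where they were lower, so that a filter on low values kept them mainly through the other strain, and without such genes 6 of 8 were lower and 1 higher. The gene dod-24, for a CUB-domain protein, had 0.0892, 0.398, 0.485 and 0.383 CPM in pals-17(*) libraries, 36 reads in all, against 451, 447, 612 and 647 CPM in wild-type libraries. The wild-type mean was 1593 times the mutant mean (log2 difference -10.74, limma adjusted p = 9.38e-09), and the log2 difference was -8.65 with 1 CPM added.

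The CUB-domain gene irg-4 had 1.61, 2.39, 2.61 and 2.87 CPM in mutants and 375, 259, 284 and 313 CPM in wild-type animals, and its log2 difference of -7.03 became -6.43 under library totals. Another gene of this kind, dod-22, was near the limit of detection in the mutants, with 22 reads in all 4 libraries (0.268, 0.0724, 0.373 and 0.153 CPM), against 13.1, 19.6, 18.7 and 19.4 CPM in wild-type libraries. Its log2 difference was -6.42, and -3.93 with 1 CPM added. The gene irg-5 was less extreme, at 11.4, 10.9, 17.2 and 14.2 CPM in mutants and 203, 101, 234.5 and 242 CPM in wild-type animals (log2 difference -3.81). For all of these genes the strains were separated by a wide margin.

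The exceptions in this list were few. The mucin-like gene mul-1 was higher at a low level, 2.65 ± 0.561 CPM in mutants and 0.992 ± 0.170 CPM in wild-type animals (SD, n = 4 each, log2 difference 1.37), but its difference was 0.87 with 1 CPM added and 0.27 after quantile normalization, where it did not pass the threshold (limma adjusted p = 0.302). The P-type ATPase gene catp-3 was higher by 0.48. The antimicrobial peptide gene nlp-29, which is expressed in the epidermis under control of the p38 cascade there, had 8.97, 10.8, 10.8 and 7.80 CPM in pals-17(*) libraries and 9.71, 10.7, 8.40 and 9.40 CPM in wild-type libraries. The strains overlapped fully (log2 difference -0.0020, 95% confidence interval -0.30 to 0.29, limma adjusted p = 0.989), but under library totals the difference was 0.59 and after quantile normalization it was -0.48, past the threshold. The part of intestine markers, which were lower by a median of -1.93, in the falls of intestinal effector genes was not tested.

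Detoxification genes that need SKN-1 had a median difference of -0.99, with 8 of 10 lower and 2 higher in pals-17(*) mutants, when 41.2% of all genes were lower and 42.5% higher. Under library totals 5 were lower and 2 higher, among 23.3% and 60.1% of all genes. The glutathione S-transferase gene gst-10 had 6.65, 8.11, 7.42 and 6.66 CPM in mutants and 318, 257, 357 and 399 CPM in wild-type animals (log2 difference -5.51, limma adjusted p = 7.01e-10). The commonly used SKN-1 reporter gene gst-4 had 6.02, 7.67, 6.12 and 6.197 CPM in mutants and 30.8, 29.04, 42.1 and 53.7 CPM in wild-type animals (-2.54). Both were lower in the mutants in every library. The part of tissue makeup in the differences of this list was not tested, while intestine markers were lower by a median of -1.93.

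The gene gcs-1, for the rate-limiting enzyme of glutathione synthesis, had 100.5, 93.6, 88.4 and 84.3 CPM in pals-17(*) libraries and 193.7, 186.5, 203.8 and 202.4 CPM in wild-type libraries (log2 difference -1.10, limma adjusted p = 1.61e-07). The nitrilase gene nit-1 fell by 3.00 on the log2 scale. In contrast, the glutathione S-transferase genes gst-7 (116 ± 16.5 CPM in mutants and 67.1 ± 14.0 CPM in wild-type animals, SD, n = 4 each) and gst-5 were higher, by 0.81 and 0.41. The skn-1 transcript itself differed by -0.22 as deposited. It was higher in the mutants under library totals (0.38), quantile normalization (0.37) and neuron and muscle markers (0.31).

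**Figure D5:**
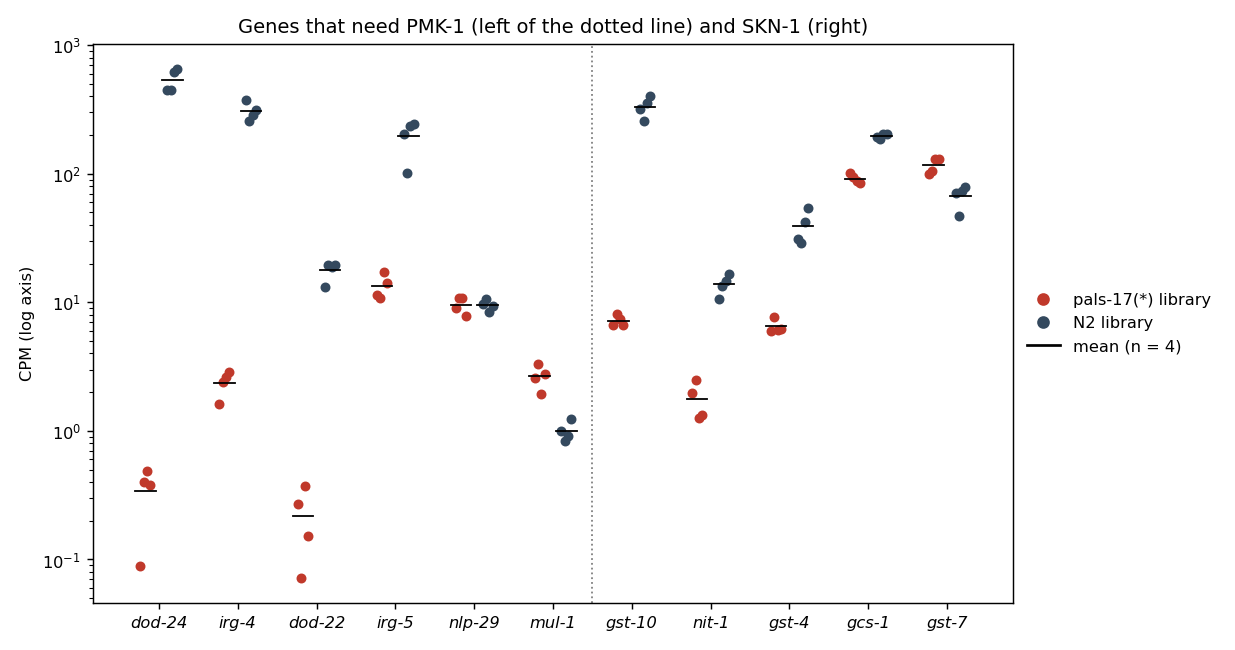
CPM (log axis) of genes that need PMK-1 (left of the dotted line) and genes that need SKN-1 (right), with 4 pals-17(*) libraries left of 4 wild-type N2 libraries for each gene. Points are libraries and bars are means. In mutants dod-24 averaged 0.339 CPM, against 539 CPM in wild-type animals, while nlp-29 overlapped at 9.59 CPM in mutants and 9.54 CPM in wild-type animals.

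Genes whose log2 profile, centred on its mean, was closest to each member over the 8 libraries were sought among all genes by Euclidean distance. The nearest to pmk-1 were F36A2.7 (distance 0.0845) and arf-3 (0.0925), a small GTPase gene, and pmk-3 was the 79th nearest gene. For the kinase genes upstream they were mrps-35 and tag-131 for sek-1 and unc-115 and K07E3.1 for nsy-1, and for tir-1 they were F32B5.6 and nsf-1. The nearest to vhp-1 were math-3 and usp-50, those to atf-7 were W03F9.1 and H27A22.1, and those to skn-1 were mrck-1 and sec-31. No member was among the 2 nearest genes of another, and the closest was atf-7, at place 120 from skn-1. Such distances include the difference between the strains, which enters every profile.

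The annotated exons of nsy-1, sek-1 and skn-1 overlap those of a gene in the table on the opposite strand by 56, 70 and 41 bp. The strand setting used for counting is not given in the sources used here. These overlaps are short next to 5061, 2054 and 2960 bp of exon. On the same strand, exons of atf-7 (2714 bp in all) overlap those of the protein-coding gene C07G2.5 by 72 bp. Those of nsy-1 overlap F59A6.13, also protein-coding, by 33 bp. Neither of these neighbours is in the table.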

How the data were processed

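Total RNA of whole animals was sequenced from 4 pals-17(*) and 4 wild-type libraries (TruSeq Stranded mRNA). Reads were mapped to WS235 by the authors with Rsubread and counted with featureCounts, genes under 1 CPM were removed, and limma-voom in Galaxy gave the deposited log2 CPM values. The scaling method, annotation and strand setting of counting are not given in the sources used here. Steps between values gave a whole number of reads (within 0.01) for 100% of values. Of 14542 entries, 1 names no gene (0.00417% of reads) and was left out.

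Strains were compared on these log2 values with limma 3.58.1, run under R 4.3.3 (equal weights, intensity trend, 2-sided, Benjamini-Hochberg adjustment over 14541 genes). Single values and pairs of genes were compared by an exact permutation test over 70 relabellings. CPM were computed from the recovered whole reads of a gene and the scaled library size. They leave out the 0.5 reads that the log2 values include. Loci are those of Ensembl release 115 on WBcel235. Figures were drawn with matplotlib 3.10.9.

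The cascade genes and lists were chosen with earlier results of these data known. Named from each list are the 3 largest rises and 3 largest falls among called genes, plus preset genes (pmk-2, pmk-3, nipi-3, cebp-1, wdr-23, irg-5, nlp-29, gcs-1 and gst-4). The effector genes T24B8.5, which was also preset, and C32H11.1 were not matched to the table by name. They were therefore not analysed, and the effector counts lack them. Alternatives were voom weights, no trend, robust fitting, a replicate block, an added 0.1 or 1 CPM, 2 filters, 4 scalings, an adjusted p under 0.01, each library left out and, chosen after seeing the data, scaling by neuron and muscle markers. On simulated data the fit called 34 of 67 genes changed by 0.5 on the log2 scale, 67 of 67 changed by 1, and 11 unchanged genes. Few genes were changed there and the library scale was fixed, so the simulation cannot test the dependence on scaling.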

Additional observations from a re-analysis of the deposited data

Results flagged for a closer look

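Among 41 genes in 2 strains (82 groups of 4 libraries), 3 groups had 1 library far from the others by Dixon's test at the 95% level, and chance alone flags about 1 group in 20. In pals-17(*) replicate 1, snb-1 had 113 CPM, against 121.7 to 122.6 CPM in the other mutant libraries. The effector gene dod-22 was at 13.1 CPM in wild-type replicate 1 and at 18.7 to 19.6 CPM in the others. The detoxification gene gst-4 was at 7.67 CPM in pals-17(*) replicate 2 and at 6.02 to 6.197 CPM in the others. None of the 7 cascade genes was flagged in either strain.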

How the results depend on the processing

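The scaling between libraries is the main limit, since the median of all genes moved by 0.60 under library totals and by 0.53 under neuron and muscle markers, and the share of calls that were lower went to 27.9% and 28.8%, against 49.2% as deposited (53.8% under quantiles).

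Under library totals 2 cascade genes were higher, 2 lower (7 as deposited) and 0 past 2-fold, and reversed values were tir-1 0.017, vhp-1 0.15, atf-7 0.39, skn-1 0.38, snb-1 0.54, wdr-23 0.28 and nlp-29 0.59. The parallel MAPK genes then had 9 higher and 4 lower (3 and 10 as deposited), the cascade regulators 9 higher (4), the SKN-1 regulators 4 higher and 2 lower (2 and 5), the PMK-1 effectors 4 higher (2) and the SKN-1 detoxification genes 5 lower (8). Under neuron and muscle markers 2 cascade genes were higher, 2 lower and 0 past 2-fold, with 7 higher and 4 lower parallel MAPK genes, 9 higher cascade regulators, 3 lower SKN-1 regulators and 5 lower detoxification genes, and reversed values of vhp-1 0.084, atf-7 0.32, skn-1 0.31, snb-1 0.47, wdr-23 0.21 and nlp-29 0.53. Under quantiles 2 cascade genes were higher and 4 lower, 6 parallel MAPK genes higher, 2 SKN-1 regulators lower and 1 PMK-1 effector higher, with atf-7 at 0.48, skn-1 at 0.37 and snb-1 at 0.41. Scaling by snb-1 left 0 cascade genes past 2-fold and nlp-29 at 0.054. Adding 1 CPM left 0 cascade genes past 2-fold and nlp-29 at 0.00049, and moved dod-24 to -8.65, dod-22 to -3.93, octr-1 to 1.66 and mul-1 to 0.87. Keeping genes with a mean of 1 CPM in each strain left 2 higher regulators and, of 8 effectors, 1 higher and 6 lower. Without the intensity trend 6 cascade genes were lower.

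With 1 library left out, cascade genes past 2-fold numbered 0 to 1 and lower ones 6 to 7, nlp-29 ran from -0.064 to 0.093, and atf-7 minus skn-1 from -0.030 to 0.055. The cause of these changes was not tested beyond the scale itself. Same-numbered libraries did not deviate together (correlations -0.0167 to 0.0731), and with the replicate block 7 cascade genes were lower, and 6187 genes were higher and 6013 lower in all, against 6180 and 5994 without it.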
